A study of Mus musculus with 2 samples.

Results

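Within mouse renal progenitors of the Pax2 lineage, the cells that carried the most transcript of Gata3 and Kitl were described against the remaining cells of the same culture. In each of 2 single-cell libraries, the UMIs (unique molecular identifiers, which count distinct captured RNA molecules) of Gata3 and Kitl were summed per cell and divided by the cell's total. The members were chosen by this score, as the top 20% of cells in each library, and numbered 1027 of 5135 cells in all. They were 456 of 2281 cells in the panobinostat library and 571 of 2854 cells in the vehicle library. Since the levels of Gata3 and Kitl chose the members, those levels are a description and support nothing.

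The progenitors grew out of glomerular preparations of kidney cortex from healthy 9-week-old C57Bl/6 mice that carried Pax2.rtTA;TetO.Cre; R26.mT/mG, in which an inducible activator under the Pax2 promoter drives Cre, and labelled cells and their descendants switch to GFP. Cells positive for GFP were sorted after 5 days, plated, starved for 16 h and then held for 48 h with 0.2 µM panobinostat, an inhibitor of histone deacetylases, or with DMSO as vehicle. Both libraries carry the same alleles and passed the same sort. Each treatment has 1 library, 2 mice are given, and how their cells were divided is not said. Therefore no difference between treatments could be tested, and what panobinostat did cannot be told apart from whatever else set the libraries apart. Members and other cells of a library are not separate samples either, so their difference has no replicate check. Every interval below is a 95% interval that covers counting error only.

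Gata3 encodes a zinc-finger transcription factor of the nephric duct and ureteric bud, which later form the collecting duct system. Kitl encodes stem cell factor, the ligand of the receptor tyrosine kinase Kit. Clu encodes clusterin, a secreted chaperone that tubular epithelium makes abundantly after damage. On GRCm38, Gata3 lies at chr2:9857078-9890034 on the minus strand, Kitl at chr10:100015630-100100416 on the plus strand and Clu at chr14:65968483-65981547 on the plus strand.

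Gata3 and Kitl chose the members, and Gata3 is a GATA factor. The RefSeq promoters (GRCm38.p6) were therefore searched on both strands in the 250 bases before the start that RefSeq lists for each gene. That start can lie inside the GENCODE span of a gene, which reaches to the outermost transcript, and it does for Gata3 and Kitl. The GATA letters were AGATAA with its variant AGATAG, together with TGATAA and its variant TGATAG. The TFAP2 letters were GCCNNNGGC, where N is any base. The window of Gata3 (chr2:9878601-9878850, minus strand), where GENCODE also places an exon of the antisense RNA Gm13256, is printed with that of Sprr2f (chr3:92364937-92365186, plus strand), a small proline-rich protein gene. Of the 12 genes with the largest ratios in both libraries, 6 had a single listed start, and Sprr2f was the 1 of these whose window held GATA letters. Capitals mark matches, which overlap nowhere here.
Gata3: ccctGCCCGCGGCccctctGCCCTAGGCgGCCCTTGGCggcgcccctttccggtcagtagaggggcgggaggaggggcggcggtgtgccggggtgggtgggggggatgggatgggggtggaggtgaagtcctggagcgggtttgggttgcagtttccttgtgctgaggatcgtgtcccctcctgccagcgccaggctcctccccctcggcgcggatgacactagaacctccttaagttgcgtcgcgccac
Sprr2f: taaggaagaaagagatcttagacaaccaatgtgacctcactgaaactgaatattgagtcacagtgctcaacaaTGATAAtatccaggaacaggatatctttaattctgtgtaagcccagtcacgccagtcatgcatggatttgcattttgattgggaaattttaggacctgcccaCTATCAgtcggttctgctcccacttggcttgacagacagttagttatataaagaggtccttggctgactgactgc

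The Gata3 window held 3 matches to the TFAP2 letters, which begin 246, 231 and 221 bases before its start, and 0 to the GATA letters. The Sprr2f window held 2 GATA matches, which begin 177 and 75 bases before its start, and the Kitl window held neither motif. Among genes with a single listed start, GATA letters stood in 16 of 67 promoters of genes higher in members in both libraries (23.9%, 14.3 to 35.9%) and in 18 of 105 promoters of genes lower in both (17.1%, 10.5 to 25.7%). The share was 15.4% for all 4774 such promoters of genes measured in both libraries and 27.6% for all 22862 single-start promoters of the table. TFAP2 letters stood in 28.4%, 35.2%, 21.4% and 13.3% of the same sets. A match is a run of letters and does not show a binding site.

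Members were not deeper than the other cells. The median total was 40588.5 UMIs for members and 42653 for other cells in the panobinostat library, and 27291 for members and 28090 for other cells in the vehicle library. Mitochondrial transcripts made up a median of 7.11% of UMIs in members and 6.92% in other cells under panobinostat, and 5.32% in members and 5.06% in other cells under vehicle. No barcode was present in both libraries. Doublets may remain, since the caller marked 14 of 5135 cells (0.273%), too few for it to have worked.

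Levels are given as CPM, the UMIs of a gene, or of both genes for the score, scaled to 1000000 UMIs in all. The score was higher in the panobinostat library. Its members had a median score of 232 CPM, from 103.05 to 1012 CPM, and a median of 9 summed UMIs. Vehicle members had a median score of 87.9 CPM, from 46.3 to 834 CPM, and a median of 3 summed UMIs, and 110 of them rested on a single UMI. In the panobinostat library no member rested on 1 UMI. At the threshold, the last panobinostat member had 3 Gata3 UMIs of 29113, and the first cell outside had 5 Gata3 and 1 Kitl UMIs of 58286. The last vehicle members included a cell with 1 Kitl UMI of 21604, and the first cell outside had 1 Gata3 UMI of 21610. A score of 0 was found in 63.7% of other cells under panobinostat and 83.8% under vehicle. No cell type known to lack both genes was identified among these sorted cells, so the share of UMIs from free RNA could not be read.

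Most panobinostat members carried both transcripts, and most vehicle members carried 1 of them. Both genes were found in 379 of 456 panobinostat members (83.1%, 79.4 to 86.4%), with Gata3 alone in 33 and Kitl alone in 44. In the vehicle library, 229 of 571 members held both (40.1%, 36.1 to 44.3%), 221 held Gata3 alone and 121 held Kitl alone. With cells drawn down at random to 18663 UMIs each (14 panobinostat and 96 vehicle members were shallower and left out), Kitl was seen in 83.9% of panobinostat members (92.8% unthinned) and in 49.9% of vehicle members (61.3% unthinned). Gata3 was seen in 75.8% of thinned panobinostat members (90.4% unthinned) and in 69.1% of thinned vehicle members (78.8% unthinned).

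Each of the 2 genes was also read in cells ranked by the other alone, which leaves the gene that is read out of the choice. Among the top 20% by Gata3, Kitl stood at 133 CPM against 19.9 CPM in the other panobinostat cells (log2 ratio 2.74, 2.65 to 2.83), and at 25.8 CPM against 7.15 CPM in the other vehicle cells (1.85, 1.67 to 2.03). Among the top 20% by Kitl, Gata3 stood at 67.3 CPM against 11.3 CPM under panobinostat (2.58, 2.46 to 2.70). Under vehicle it stood at 25.7 CPM against 11.1 CPM (1.21, 1.05 to 1.37), where 552 of the 571 top cells held a Kitl UMI. So each transcript was higher where the other was high in both libraries, and both ratios were larger in the panobinostat library. With cells thinned to one depth, Kitl had 2.39 under panobinostat and 1.62 under vehicle, and Gata3 had 2.05 and 1.09. With ranking and measurement on separate UMIs, Kitl had 2.43 and 1.42, and Gata3 had 2.56 and 0.96.

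The members gathered in few clusters of a clustering made per library without Gata3 and Kitl. Cluster 1 of the panobinostat library, with 658 cells, held 437 members, which were 66.4% of its cells and 95.8% of the library's members. In the vehicle library, cluster 3 (491 cells) held 302 members and cluster 4 (433 cells) held 197, together most of the 571. The 2 vehicle clusters differed in cell-cycle phase: 100% of cluster 3 and 27.9% of cluster 4 were called S or G2/M.

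**Figure D1:**
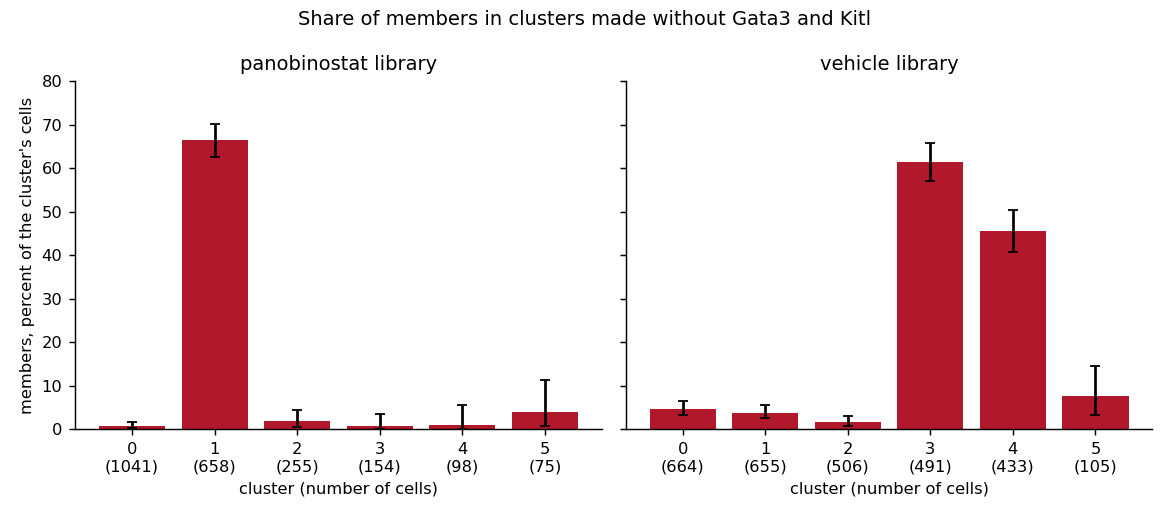
Share of each cluster's cells that were members (y axis, percent), for the clusters of the panobinostat library (left) and the vehicle library (right), with exact binomial 95% intervals and the cells per cluster in brackets. Members make up 66.4% of cluster 1 under panobinostat, and 61.5% of cluster 3 and 45.5% of cluster 4 under vehicle, against at most 7.62% of any other cluster.

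Beyond the 2 genes that chose them, members differed from other cells in a limited set of genes. A gene was called by size: at least 1.5-fold, an interval of the ratio that excludes equality, and at least 10 CPM in members or in other cells. In the panobinostat library 294 genes were higher in members (3.51% of the 8382 tested) and 391 were lower (4.66%). In the vehicle library 220 were higher (2.63% of 8368) and 280 were lower (3.35%). With TMM factors the vehicle counts were 169 higher and 347 lower, and with DESeq2 size factors 171 and 342. Genes called the same way in both libraries numbered 120 higher (1.58% of the 7572 tested in both) and 180 lower (2.38%). The higher ones were 40.8% of the panobinostat list and 54.5% of the vehicle list, and the lower ones 46.0% and 64.3%. The median log2 ratio over all tested genes was 0.02 under panobinostat and 0.04 under vehicle. Across the 7572 genes, the 2 libraries' log2 ratios had a Pearson r of 0.797 and a Spearman rho of 0.603. Genes are not independent replicates, and no p-value was computed.

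**Figure D2:**
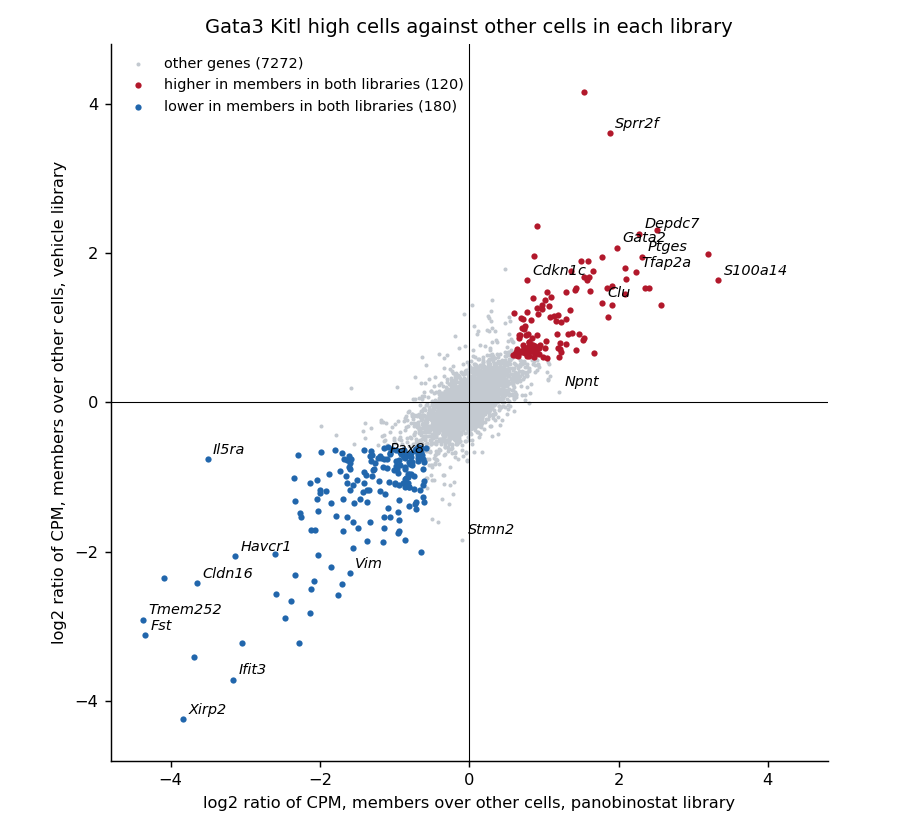
Each point is a gene tested in both libraries other than Gata3 and Kitl. The x axis is the log2 ratio of CPM in members over other cells in the panobinostat library and the y axis the same ratio in the vehicle library; the 120 red genes were higher and the 180 blue genes lower in both, and Fst, Tmem252, Xirp2 and Ifit3 lie toward the lower left.

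Clu, the third gene named with the pair, took no part in the ranking and was higher in members of both libraries. It was named with them when earlier results of these data were known, so its levels are a description and no independent support. It stood at 15235 CPM in members and 4445 CPM in other cells of the panobinostat library (log2 ratio 1.78, 1.77 to 1.78). In the vehicle library it stood at 4314 CPM in members and 1713 CPM in other cells (1.33, 1.32 to 1.35). Along the ranking of panobinostat cells, Clu stood at 3379 CPM in cells with no Gata3 or Kitl UMI, 6132 CPM in cells below the threshold, 14653 CPM in the lower-ranked members and 15876 CPM in the upper-ranked members. Along the vehicle ranking it stood at 1457, 2649, 3858 and 4800 CPM. Across cells thinned to 1 depth, the Spearman correlation of Clu with the score was 0.518 over 2221 panobinostat cells and 0.390 over 2401 vehicle cells.

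Transcription factors of the duct lineage were split. Gata2, a second GATA factor that acts in the collecting duct, stood at 25.8 CPM in members and 6.54 CPM in other cells under panobinostat (log2 ratio 1.98, 1.80 to 2.15), and at 28.8 CPM in members and 6.86 CPM in other cells under vehicle (2.07, 1.89 to 2.25). Its ratio was nearly the same in both libraries. Tfap2a, an AP-2 transcription factor, stood at 24.4 CPM in members and 5.17 CPM in other cells under panobinostat (2.24, 2.05 to 2.43) and at 21.6 CPM and 6.46 CPM under vehicle (1.74, 1.55 to 1.94). Pax2, which marks the whole lineage, stood at 36.3 CPM in members and 22.1 CPM in other cells under panobinostat (0.71, 0.59 to 0.84). Under vehicle Pax2 stood at 48.2 CPM in members and 38.6 CPM in other cells (0.32, 0.21 to 0.43), under the fold that was called. Its close relative Pax8 ran the other way, at 60.8 CPM in members and 134 CPM in other cells under panobinostat (-1.14, -1.23 to -1.06) and at 77.4 CPM and 130 CPM under vehicle (-0.75, -0.84 to -0.67).

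Of 22 listed genes of the ureteric bud and nephric duct, 16 were tested in both libraries, 1 was higher in both (Tfap2a) and 1 was lower in both (Pax8). For comparison, 1.58% of the 7572 genes tested in both were higher and 2.38% lower in both. Tfap2a passed the floor only through members in each library and could only be called higher. Ret, the receptor tyrosine kinase of the ureteric bud tip, stood at 14.1 CPM in members and 12.3 CPM in other panobinostat cells, and at 0.572 CPM and 1.08 CPM under vehicle. Spry1, an inhibitor of receptor tyrosine kinase signalling, was lower in members under panobinostat (-1.12) and under the fold in the vehicle library (-0.50). Of 9 listed GATA factors and cofactors in the matrix other than Gata3, 5 were tested in both, and Gata2 was the 1 called in both. Gata2 too passed the floor only through members in each library and could only be called higher. Lmo4, a LIM-domain cofactor, was lower in panobinostat members (-0.62).

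Transcripts of the Kit receptor were scarce. Kit stood at 0.592 CPM in members and 0.703 CPM in other panobinostat cells, from 12 and 59 UMIs, and at 0.915 CPM and 1.01 CPM in the vehicle library, from 16 and 74 UMIs. Among 17 listed genes of Kit signalling, 11 were tested in both libraries and 0 were called in both. Across all genes tested in both, 1.58% were called higher and 2.38% lower in both. The Kit signalling list had a median log2 ratio of 0.05 under panobinostat and 0.08 under vehicle. Pik3r1, a regulatory subunit of phosphoinositide 3-kinase, was the 1 called in either library (-0.73 under panobinostat and -0.39 under vehicle).

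Of 11 collecting duct principal cell genes tested under panobinostat, 8 were higher in members and 0 lower, with a list median of 0.84 against 0.02 for all genes. Of all tested genes, 3.51% were higher and 4.66% lower under panobinostat, with 2.63% and 3.35% under vehicle. Aqp3, Scnn1a and Scnn1b under panobinostat, and Scnn1a under vehicle, passed the floor only through members and could only be called higher. Under vehicle 2 of 10 principal cell genes were higher and 1 lower, with a median of 0.30 against 0.04. The 19 listed genes summed to 3607 CPM in members and 2999 CPM in other panobinostat cells. Under vehicle the sum was lower in members, at 4459 CPM against 5171 CPM in other cells. The tested genes were not the same in the 2 libraries, and the difference in counts was not tested. Scnn1a, a subunit of the epithelial sodium channel, stood at 20.2 CPM in members and 6.57 CPM in other panobinostat cells (1.62, 1.43 to 1.81) and at 14.9 CPM and 5.28 CPM under vehicle (1.49, 1.26 to 1.72). Tfcp2l1, a collecting duct transcription factor, was the second gene called in both (0.84 under panobinostat and 0.77 under vehicle). Aqp3, a basolateral water channel, stood at 20.1 CPM in members and 3.88 CPM in other panobinostat cells (2.37, 2.16 to 2.58), and at 0.858 CPM and 0.0546 CPM in the vehicle library, from 15 and 4 UMIs. Aqp2, the apical water channel of principal cells, had 2 UMIs in panobinostat members and 0 in vehicle members, which allows up to 0.172 CPM. Npnt, a matrix protein of the ureteric bud, was higher under panobinostat (1.20) and under the fold in the vehicle library (0.14). Gdf15, a stress-induced secreted factor on the same list, was the 1 lower in vehicle members (-0.69).

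**Figure D3:**
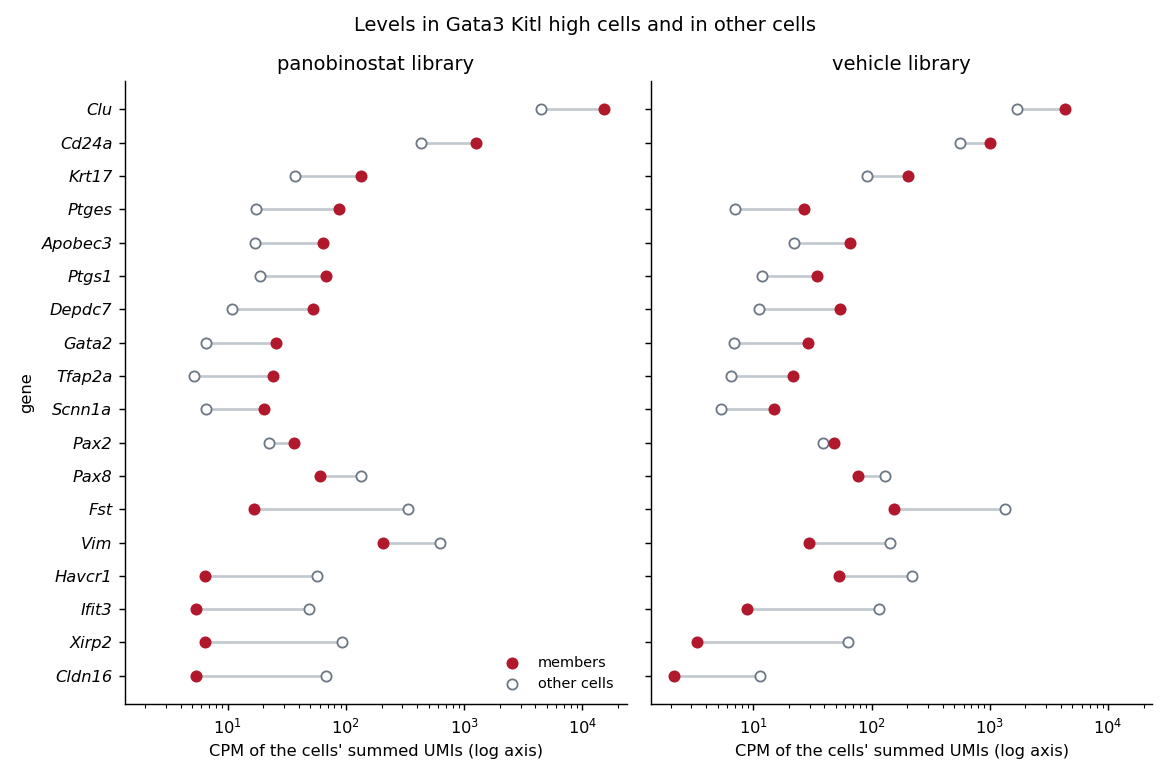
CPM on a log axis of 18 genes in members (filled red) and other cells (open grey) of the panobinostat library (left) and the vehicle library (right). Clu, Gata2, Tfap2a and Scnn1a are higher in members of both libraries, and Pax8, Fst, Vim, Havcr1, Ifit3, Xirp2 and Cldn16 are lower in members of both.

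Several genes named for their large ratios encode enzymes. Ptges, a prostaglandin E synthase, stood at 87.3 CPM in members and 17.5 CPM in other panobinostat cells (2.32, 2.22 to 2.42) and at 27.0 CPM and 6.99 CPM under vehicle (1.95, 1.77 to 2.13). Ptgs1, cyclooxygenase 1, had log2 ratios of 1.85 and 1.53 in the panobinostat and vehicle libraries. Ltc4s, leukotriene C4 synthase, had 2.36 and 1.53. Dhrs3, a retinal reductase, had 2.08 and 1.45, and Degs2, a sphingolipid hydroxylase, had 3.02 under panobinostat and lay below the floor under vehicle, where it was not tested.

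Other genes higher in members of both libraries, not all among the largest ratios, encode proteins of varied kinds. Depdc7 was the most even of those given here, at 52.9 CPM in members and 10.9 CPM in other panobinostat cells (2.28, 2.15 to 2.41). Under vehicle Depdc7 stood at 53.9 CPM and 11.3 CPM (2.26, 2.12 to 2.39). Add2, an adducin of the membrane skeleton, had log2 ratios of 2.52 under panobinostat and 2.31 under vehicle. Pmp22, a membrane protein best known from myelin, had 1.60 and 1.68, and Apobec3, an antiviral cytidine deaminase, had 1.91 and 1.56. S100a14, a calcium-binding protein, stood at 38.3 CPM in members and 3.801 CPM in other panobinostat cells (3.33, 3.14 to 3.53) and at 11.8 CPM and 3.79 CPM under vehicle (1.64, 1.37 to 1.90). Fgfr2, the receptor through which fibroblast growth factors act on the ureteric bud, was higher in both (1.29 and 1.11). Cdkn1c, a cyclin-dependent kinase inhibitor, was also higher in both (0.78 and 1.64). Sprr2f, whose promoter is printed above, had 1.88 and 3.60, but a single cell held 60.2% of its UMIs among other panobinostat cells and another 64.2% among other vehicle cells.

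Of the keratins, 3 of 5 tested were higher in members under panobinostat and 1 of 6 under vehicle. Of all tested genes, 3.51% and 2.63% were higher. Krt17 was called in both libraries, at 134 CPM in members and 37.0 CPM in other panobinostat cells (1.85, 1.78 to 1.93) and at 202 CPM and 91.4 CPM under vehicle (1.14, 1.08 to 1.20). Unthinned, a Krt17 UMI was found in 22.4% of members and 8.38% of other panobinostat cells, and in 30.5% and 19.5% under vehicle. Krt18 and Krt7, keratins of simple epithelium, were higher in panobinostat members (1.05 and 0.78) and under the fold in vehicle members (0.32 and 0.21). Of the junction genes, 5 of 19 were higher and 2 lower under panobinostat, where 4.66% of all tested genes were lower. Of the 18 tested in both libraries, 0 were higher in both and 2 were lower in both. The shares over all genes tested in both were 1.58% and 2.38%. The 2 lower genes, Cdh6 (-2.12 and -1.71) and Cdh2 (-1.10 and -0.88), encode cadherins of the early nephron and of proximal tubule. Under panobinostat, Cdh6 passed the floor only through the other cells and could only be called lower. Cdh1, the E-cadherin of the duct, was under the fold in both (0.50 and 0.40).

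Among the genes with the lowest ratios in both libraries was Fst, which encodes follistatin, a secreted inhibitor of activins. It stood at 16.6 CPM in members and 337 CPM in other panobinostat cells (-4.34, -4.50 to -4.18) and at 154 CPM and 1336 CPM under vehicle (-3.12, -3.18 to -3.07). Its level in members was far below that in other cells of either library. After thinning, an Fst UMI was found in 9.28% of members and 48.3% of other panobinostat cells (16.7% and 62.7% unthinned), and in 33.3% of members and 81.9% of other vehicle cells (39.8% and 83.0% unthinned). Along the vehicle ranking Fst stood at 1469, 848, 249 and 52.0 CPM from cells with no UMI to the upper-ranked members. Inhba, which encodes an activin subunit, was lower in members of both libraries (-1.01 and -0.90). Xirp2, an actin-binding protein of striated muscle, stood at 6.46 CPM in members and 91.7 CPM in other panobinostat cells (-3.83, -4.09 to -3.58) and at 3.32 CPM and 63.0 CPM under vehicle (-4.25, -4.65 to -3.87). Few cells carried it, 14 members and 507 other cells under panobinostat and 22 and 410 under vehicle, and its vehicle ratio was 0.40 when only cells called G1 were ranked.

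**Figure D4:**
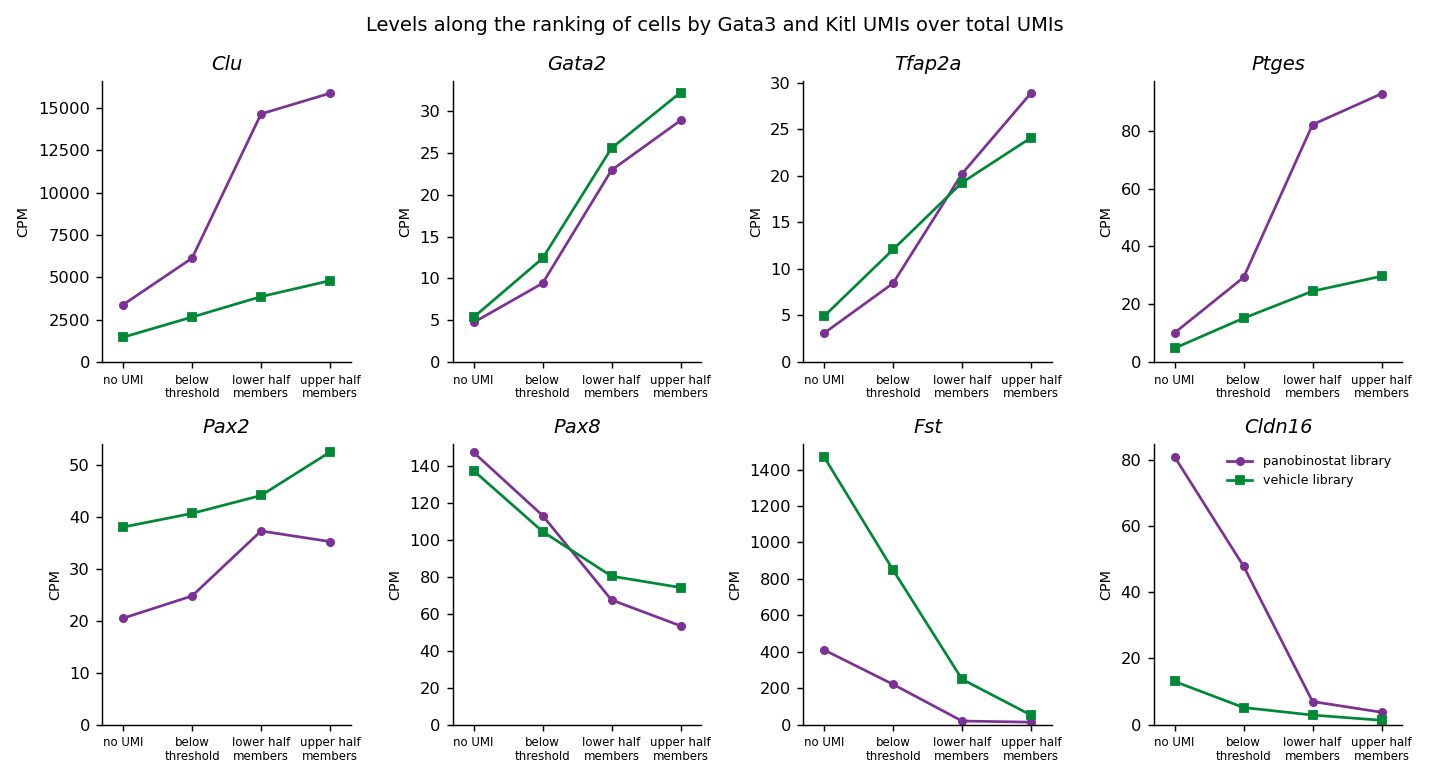
CPM (linear axes from 0) of 8 genes in 4 steps of the ranking, from cells with no Gata3 or Kitl UMI to the upper-ranked members, for the panobinostat library (circles) and the vehicle library (squares). Clu, Gata2, Tfap2a and Ptges stand higher at each step, Pax8, Fst and Cldn16 stand lower at each step, and Pax2 under panobinostat is at 37.3 CPM in the lower-ranked and 35.2 CPM in the upper-ranked members.

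Of 11 thick ascending limb genes, 4 passed the floor in each library and all 4 were lower in members, where 4.66% of all tested genes were lower under panobinostat and 3.35% under vehicle. The count carries little, since Cldn16 and Irx1 in both libraries and Cldn19 under vehicle passed only through the other cells. Cldn16, a claudin of magnesium reabsorption, stood at 5.43 CPM in members and 68.2 CPM in other panobinostat cells (-3.65, -3.94 to -3.38) and at 2.12 CPM and 11.4 CPM under vehicle (-2.42, -2.94 to -1.95). Irx1 and Irx2, homeobox genes of the nephron, had -2.13 and -1.27 under panobinostat and -2.50 and -0.82 under vehicle. Umod and Slc12a1, which define the mature segment, had 0 and 2 UMIs in panobinostat members and 0 and 0 in vehicle members.

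Of 13 tubular injury genes tested in both libraries, 4 were lower in members of both, against 2.38% of all genes tested in both. Havcr1, the kidney injury molecule, stood at 6.46 CPM in members and 56.8 CPM in other panobinostat cells (-3.14, -3.40 to -2.89) and at 52.9 CPM and 220 CPM under vehicle (-2.06, -2.15 to -1.96). Vim, the intermediate filament vimentin, stood at 205 CPM in members and 622 CPM in other panobinostat cells (-1.60, -1.64 to -1.55) and at 29.6 CPM and 144 CPM under vehicle (-2.29, -2.42 to -2.16). Under vehicle, a Vim UMI was held by 58 members and 529 other cells, and a single cell held 25.1% of the members' Vim UMIs. Krt20 and Il34, a keratin and a cytokine ligand of the receptor Csf1r, were the other 2 lower in both. Under panobinostat, Havcr1 and Il34 passed the floor only through the other cells and could only be called lower. Clu, often counted with injury genes, was higher in the same members.

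Some genes of the matrix, contractile and interferon lists were lower. Of all genes tested in both libraries, 2.38% were lower in both. Of 19 basement membrane and matrix genes tested in both libraries, 7 were lower in both and 0 higher in both, among them Timp3 (-1.56 under panobinostat and -1.60 under vehicle), a metalloproteinase inhibitor, and the type IV collagen gene Col4a2 (-1.16 and -1.87). Of 7 contractile genes, 4 were lower in both, with Tagln at -2.34 and -1.32 and Acta2 at -2.14 and -1.08. Under panobinostat, Acta2, Cnn1 and the matrix gene Tnc passed the floor only through the other cells and could only be called lower. A single cell held 68.2% of the Tagln UMIs of panobinostat members. Of 4 interferon-response genes tested in both, Ifit3 and Ifi27 were lower in both, while the panobinostat list of 7 had a median of -0.03. Ifit3 stood at 5.38 CPM in members and 48.3 CPM in other panobinostat cells (-3.17, -3.45 to -2.89) and at 8.81 CPM and 116 CPM under vehicle (-3.72, -3.96 to -3.49). It passed the floor only through the other cells in each library. Csf1, Cxcl1 and Cxcl10 were the 3 of 5 cytokine genes that were lower in both.

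Few genes of the signalling lists were called in both libraries. Of all genes tested in both, 1.58% were higher and 2.38% lower in both. Nrarp, a target and inhibitor of Notch, was the 1 of 6 Notch genes higher in both (0.92 under panobinostat and 1.18 under vehicle), and Dhrs3 the 1 of 3 retinoic acid genes. Of 6 Wnt genes, the ligands Wnt5a (-0.69 and -0.65) and Wnt10a (-1.85 and -1.35) were lower in both. Of 14 genes of the Bmp and Tgf-beta pathway, Inhba and Fst were lower in both and 0 were higher in both. Of 12 growth factor and receptor genes, Fgfr2 was higher in both, and Igfbp2, which binds insulin-like growth factors, was lower in both (-1.61 and -0.87). The vehicle ratio of Igfbp2 was 0.077 with cells thinned to one depth and 0.86 in cells ranked by Kitl alone, so its direction turned. Klf4, an epithelial transcription factor, was the 1 of 15 immediate early genes called in both (1.04 and 0.60). The vehicle call of Klf4 was lost with TMM factors (0.52) and DESeq2 size factors (0.53), among other settings. The calls of Wnt5a were lost in both libraries among the top 10% of cells (-0.55 and -0.55). Of 12 metallothionein and oxidative stress genes, the cystine transporter gene Slc7a11 and the glutathione transferase gene Gstm1 were lower in both. Extracellular chaperones other than Clu (7 genes), nuclear RNAs (4) and mitochondrially encoded genes (13) had 0 called in both. In each library Nrarp, Dhrs3 and Fgfr2 passed the floor only through members and could only be called higher. Wnt10a and Igfbp2 in each library, and Slc7a11 under panobinostat, passed only through the other cells and could only be called lower.

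Among the parietal epithelial genes, whose cells line the Bowman capsule from which such outgrowths can come, 10 were tested in both libraries. Here too, 1.58% of all genes tested in both were higher and 2.38% lower in both. Cd24a, a surface protein of renal progenitors, was higher in members of both (1.54 and 0.86), whereas Prom1, which encodes CD133, was lower in both (-1.42 and -1.19), as was Cldn1. Aldh1a2, an enzyme of retinoic acid synthesis, was lower under panobinostat (-1.78) and under the fold in the vehicle library (-0.44). Of 3 podocyte genes tested in both libraries, Cdkn1c was higher and Col4a3 lower in both.

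**Figure D5:**
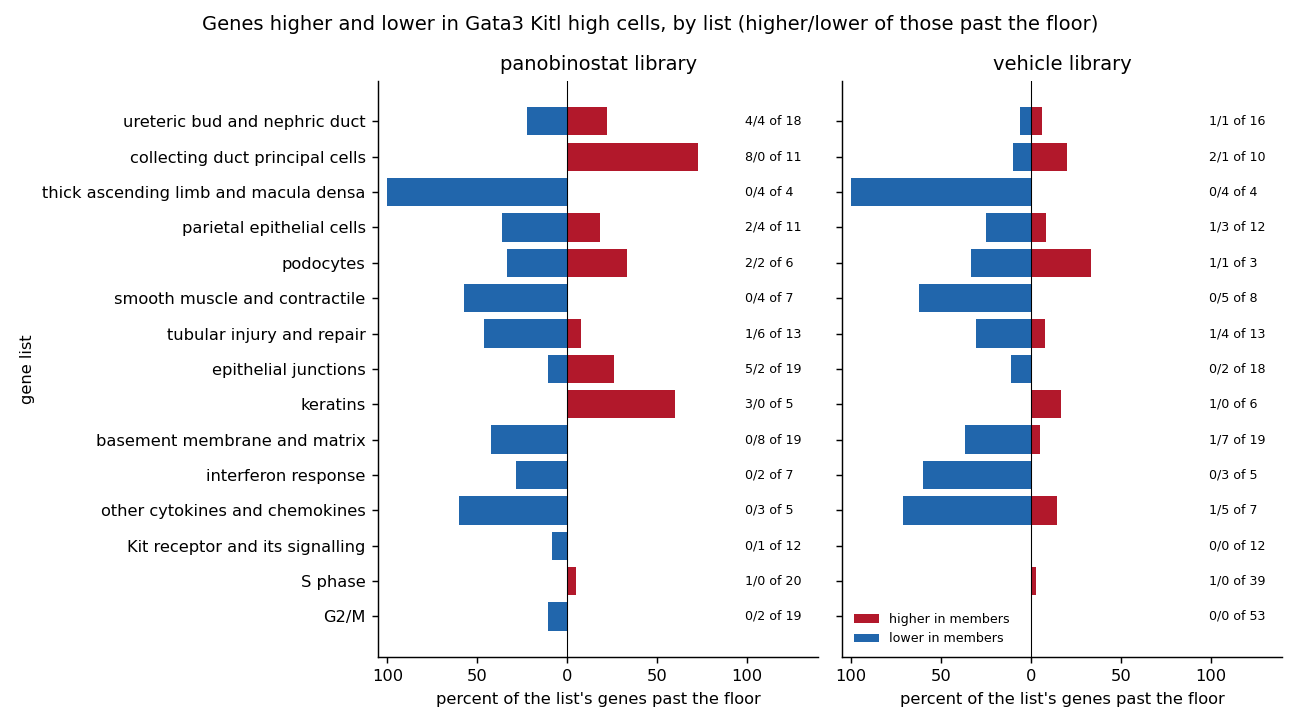
Percent of each list's tested genes that were higher (red, right) or lower (blue, left) in members, for the panobinostat library (left panel) and the vehicle library (right panel), with counts of higher and lower genes at the side. All 4 tested thick ascending limb genes were lower in each library, and 8 of 11 principal cell genes were higher under panobinostat against 2 of 10 under vehicle. Of all tested genes, 3.51% were higher and 4.66% lower under panobinostat, and 2.63% and 3.35% under vehicle. Some listed genes passed the floor only through the side where they were high.

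Markers of other cell types were summed as whole lists. Endothelial, leukocyte, mesangial and intercalated sums were higher in members of both libraries, and the proximal tubule sum was lower in both. Single genes carried several sums: in panobinostat members Cd68 gave 84.2 CPM of the leukocyte sum, Serpine2 79.5 CPM of the mesangial sum and Egfl7 87.9 CPM of the endothelial sum. The endothelial gene Flt1 was lower there, at 6.76 CPM in members and 17.7 CPM in other cells (-1.39). The summed level of 11 endothelial genes was 113 CPM in members and 92.7 CPM in other panobinostat cells, and 47.8 CPM and 28.0 CPM under vehicle, where 234 Emcn UMIs came from 2 member cells. The 6 leukocyte genes in the matrix summed to 85.8 CPM in members and 64.2 CPM in other panobinostat cells, and to 6.06 CPM and 5.25 CPM under vehicle. The 13 mesangial and pericyte genes summed to 88.8 CPM and 68.5 CPM under panobinostat and to 24.4 CPM and 17.6 CPM under vehicle. The 7 proximal tubule genes summed to 13.6 CPM in members and 16.3 CPM in other panobinostat cells and to 3.03 CPM and 11.4 CPM under vehicle. Intercalated cell genes summed to 4.74 CPM in members and 4.19 CPM in other panobinostat cells and to 2.35 CPM and 1.54 CPM under vehicle, with Foxi1, their defining factor, at 0 UMIs in members of both libraries. The part of these cell types in the ratios was not tested.

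Cell-cycle phase moved with membership in the vehicle library. There 71.1% of members (67.2 to 74.8%) and 64.7% of other cells (62.7 to 66.7%) were called S or G2/M, against 0% of 456 members and 0.329% of other cells under panobinostat. The medians of 39 S-phase and 53 G2/M genes in the vehicle library were 0.28 and 0.31, with 1 gene called. When only cells called G1 were ranked and compared, 340 genes were higher and 330 lower under vehicle. Of the genes called in both libraries, 102 of 120 higher and 147 of 180 lower ones were called in both again.

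Vehicle members were also described by which of the 2 genes they held, a split made on the same UMIs that chose them. Members with Kitl alone had a median of 21024 UMIs and 76.0% were called S or G2/M, those with Gata3 alone 25091 UMIs and 63.8%, and those with both 31880 UMIs and 75.5%. Clu stood at 5116 CPM in vehicle members with Gata3 alone, 4196 CPM in those with both genes and 2941 CPM in those with Kitl alone. Fst stood at 123, 80.8 and 412 CPM in the same order, and Vim at 17.4, 24.5 and 68.9 CPM. For these 3 genes, the values with Kitl alone were nearest to those of the other vehicle cells, and the part of depth and phase in this was not tested. When vehicle cells were ranked by Kitl alone, 68 genes were higher and 65 lower, and Clu (0.49), Vim (-0.05) and Pax8 (-0.43) fell under the fold. Ranked by Gata3 alone, 228 were higher and 299 lower. Under panobinostat the Kitl ranking gave 242 higher and 337 lower. Panobinostat members with Kitl alone had Clu at 14647 CPM, against 18118 CPM with Gata3 alone and 15105 CPM with both. No test of these differences was possible.

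Some other calls were lost under 1 or more settings, and not all of these lay close to the fold. Examples follow. Under panobinostat, Cdkn1c came to 0.48 and Pax2 to 0.56 among the top 10% of cells, and Lmo4 to -0.39 with thinned cells. In G1 cells under vehicle, Fgfr2 came from 1.11 to 0.52 and Slc7a11 from -1.17 to -0.12. The matrix gene Sparc came from -1.08 to -0.16 and Stmn2 from -1.84 to -0.57 in the same cells. Under vehicle, Col4a3 (-0.57) and Csf1 (-0.47) were under the fold among the top 30%. Cxcl10 came to -0.28 ranked by Gata3 alone. With ranking and measurement on separate UMIs, Irx2 came to -0.54 and Krt20 to -0.52.

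Among genes that reached 20 CPM in members or in other cells of both libraries, the contrast differed between the libraries in both directions. Il5ra, the interleukin 5 receptor subunit, had a log2 ratio of -3.51 under panobinostat and -0.76 under vehicle, a difference of -2.74 (-3.15 to -2.34). Ppbp, a platelet chemokine, had -1.99 and -0.31, and Sprr2f, Tmem252 and Aldh1a2 also had the lower ratio under panobinostat. In the other direction, Stmn2, a microtubule regulator of neurons, had -0.09 under panobinostat, where members stood at 525 CPM and other cells at 560 CPM, and -1.84 under vehicle, where they stood at 8.52 and 30.5 CPM. A single cell held 28.9% of the Stmn2 UMIs of vehicle members. Efhd1, Cst6, Car5b and Npnt likewise had the higher ratio under panobinostat. The transcript of the GFP reporter, EGFP, a gene picked outside the naming rule, stood at 6524 CPM in members and 7959 CPM in other panobinostat cells, and at 7783 CPM and 7558 CPM under vehicle.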

How the data were processed

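Per the labels' protocols, 3′ libraries came from a 10x Chromium run, and the submitters' processing notes name Cell Ranger 3.0.1 and mm10 with no role given. The deposited matrix holds raw UMI counts of 19394 genes, left unnormalized by the authors. The lowest gene number of a cell is 1798 and the highest mitochondrial share 9.98%, and the cell filters behind these are not stated. Libraries were told apart by the barcode mark, read as control for vehicle. The annotation and the use of strand in counting are not given in the sources used here, so reads of overlapping genes and near-identical copies may be shared. Coordinates come from GENCODE M21, matched by symbol (98.7% of symbols).

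Counts were summed over members and over the other cells of each library and scaled to CPM, with exact conditional Clopper-Pearson intervals of the ratio, exact binomial intervals of shares and 3 counts standing for 0. A gene below 10 CPM in members or in other cells is tested only through the side where it is high.

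The members and the 35 gene lists were chosen with earlier results of these data known. Named genes are 7 always given, the 10 largest and 8 smallest ratios per library among genes with 20 CPM and 10 UMIs, the 12 largest and 8 smallest by the weaker library, the 5 largest and 5 smallest differences between libraries, and up to 4 per list; mitochondrial, ribosomal and unnamed genes were left out of the rankings. Genes named outside it (Aqp2, Cdh1, Cldn1, Cxcl1, EGFP, Foxi1, Gdf15, Slc12a1, Tfcp2l1, Umod) were chosen after their values were seen.

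Clustering used counts scaled to 10000 UMIs in each cell, from which 2000 variable genes without Gata3 and Kitl gave 30 principal components, 15 neighbours and resolution 0.5 (scanpy 1.11.5, leidenalg 0.10.2). Phases and Scrublet doublets were called with scanpy. Calculations used Python 3.11.15, scipy 1.17.1 and R 4.3.3, with TMM factors from edgeR 4.0.16 and size factors from DESeq2 1.42.0 as alternatives; other ranks, floors, folds, phases and a thinned depth were also tried. No column of per-sample values was left unused. On simulated counts with counting noise only, run on all 19394 genes, 50 of 50 genes set 2-fold higher were called in each library. Of 50 genes set at 0.5-fold, 50 were called lower under panobinostat and 49 under vehicle. Of 50 set at 1.25-fold, under the fold that was called, 0 were called in either library.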

Additional observations from a re-analysis of the deposited data

Results flagged for a closer look

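Il1f6, which encodes interleukin 36 alpha, was the 1 gene called in opposite directions in the 2 libraries. It had a log2 ratio of members over other cells of -0.63 under panobinostat, where members stood at 8.68 CPM and other cells at 13.4 CPM, and of 0.61 under vehicle, where members stood at 16.7 CPM and other cells at 10.9 CPM. The UMIs came from 90 of the panobinostat members and 140 of the vehicle members. The difference was not tested, because each treatment has 1 library.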

How the results depend on the processing

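The counts follow the floor and the fold. In the order panobinostat, vehicle and both libraries, a floor of 50 CPM gave 96, 62 and 35 genes higher and 153, 107 and 74 lower. A floor of 1 CPM gave 831, 711 and 328 higher and 843, 622 and 383 lower, and no floor gave 1073, 1001 and 427 higher and 995, 739 and 429 lower. A fold of 2 gave 105, 85 and 43 higher and 154, 131 and 66 lower, and a rise of 25% gave 787, 692 and 324 higher and 848, 625 and 386 lower. G1 cells alone gave 340 higher under vehicle. Ranking by Kitl alone gave 68 higher and 65 lower under vehicle and 40 higher and 45 lower in both. Members ranked on a random part of each cell's UMIs and measured on the rest had 101 genes higher and 144 lower in both libraries, of which 94 and 142 were among the 120 and 180.

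Directions turned under single settings. Under vehicle, Igfbp2 came to 0.077 with cells thinned to one depth and 0.86 ranked by Kitl alone, Xirp2 to 0.40 in G1 cells, Stmn2 to 0.054 ranked by Kitl alone and Emcn to -5.69 ranked by Gata3 alone. The vehicle list medians of fibroblast genes with no floor (0.15) and interferon genes with a floor of 1 CPM (0.025) also turned. The cause was not tested. Of 194 calls of named genes, 147 were kept in the same direction when ranked by Kitl alone and 178 or more under each other choice of cells or scaling. No paired analysis was possible because each treatment has 1 library, and for the same reason no replicate could be left out. In the vehicle ranking 110 of 571 members rest on 1 UMI, so counting error there is large.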

Other observations

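Some genes outside the lists were higher in members of both libraries and were named after their values were seen. Ivl, which encodes the envelope protein involucrin, stood at 14.8 CPM in members and 2.50 CPM in other panobinostat cells (log2 ratio 2.57) and at 21.1 CPM and 8.52 CPM under vehicle (1.31). Muc1, an apical mucin, had ratios of 1.53 and 1.68, and Serpinb5, the serpin maspin, had 1.19 and 0.73. Car2, a carbonic anhydrase of the distal nephron, stood at 493 CPM in members and 233 CPM in other panobinostat cells (1.08) and at 113 CPM and 51.2 CPM under vehicle (1.15).

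Mme, which encodes neprilysin of the proximal brush border, was lower in both (-1.70 and -1.72), as were Nes, the filament nestin (-1.30 and -0.98), and Edn1, endothelin 1 (-1.59 and -0.81). Hoxa5, Hoxb2, Hoxc9 and Hoxc10 were lower in members of both libraries, from -0.69 to -1.46. They too were named after their values were seen, and the other Hox genes were not counted, so nothing is said of the family. Elf5, a principal cell transcription factor below the floor, stood at 2.57 CPM in members and 0.107 CPM in other panobinostat cells and at 3.32 CPM and 0.587 CPM under vehicle.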
